A study of Mus musculus with 8 samples.

Results

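Cardiac transcription factors are DNA-binding proteins that set and maintain the gene programme of the heart muscle cell. The genes described here are *Gata4*, *Gata6*, *Nkx2-5*, *Tbx5*, *Tbx20*, *Hand2*, *Mef2a*, *Mef2c*, *Mef2d* and *Srf*, chosen by name as core factors of cardiac development and of the hypertrophic response. They are 10 of the 46040 genes in the deposited count table, and each was found once. RNA sequencing had been performed on the left ventricle (LV) of 8 male C57BL/6 mice, 5 to 7 months old, with 4 libraries per genotype. All mice had received angiotensin II (angII, 0.1 mg/kg/h), a hormone that raises blood pressure, from subcutaneous pumps and were taken at day 14, so neither group was untreated and all were survivors of the infusion. One genotype was VEGFR-1 TK-/-, in which *Flt1*, the VEGFR-1 gene, lacks in all cells the part for the intracellular tyrosine kinase (TK) domain. The other genotype was littermate control.

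In the adult heart, GATA4, NKX2-5 and TBX5 bind together at promoters and enhancers of contractile and natriuretic peptide genes. MEF2 proteins and SRF carry signals from stretch, calcium and neurohormones such as angII to these genes. Much of this control acts on the proteins, through phosphorylation, cofactors and export of histone deacetylases from the nucleus, and transcript counts do not measure it.

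The labels of the samples were contradictory. Tag and library name assigned one genotype to a library, and its title assigned the other genotype. Libraries were grouped by tag and library name and are called control-tagged and TK-tagged, and each log2 fold change is TK-tagged minus control-tagged. Every sign reverses if the titles are right. Between 11449137 and 16239670 counts per library fell on genes. *Flt1* was at 67.4, 68.4, 56.9 and 84.3 normalized CPM (CPM computed on the normalized library size) in the control-tagged libraries and at 143.5, 149.1, 169.6 and 168.1 in the TK-tagged libraries (log2 fold change 1.19, SE 0.12, FDR 0.00808). The count covers the whole gene and cannot show the deleted domain, so it does not check the genotype. The library names refer to cardiomyocytes and the labels and the study to LV tissue, and markers of other cells were present. Endothelial markers summed to 1033 to 1454 normalized CPM and fibroblast markers to 567 to 1546 over the 8 libraries, beside 51840 to 86370 for cardiomyocyte markers.

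No cardiac transcription factor passed the test for a difference between the groups. Each of the 10 genes reached a CPM of 1 in 2 or more libraries and was tested, with between 226 and 3565 counts per library. With the quasi-likelihood test, 0 of 10 were called (FDR under 0.1 and a change of 1.5-fold or more in either direction), where 0.00738% of the 13542 genes tested were called. With the likelihood ratio test 0 of 10 were called beside 0.391% of genes, and with DESeq2 0 of 10 beside 0.236%. At an unadjusted p under 0.05 the quasi-likelihood test likewise had 0 of 10, where 8.96% of all genes passed. The unadjusted p of the 10 genes lay between 0.172 and 0.789 (FDR 0.696 to 0.955). The control-tagged and TK-tagged libraries overlapped in the level of all 10 genes, and 4.98% of genes tested had groups without overlap.

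The size of a difference that these data leave possible was read from the interval of each factor, without allowance for the 10 factors. The 95% confidence interval of the log2 fold change lay inside the threshold of 1.5-fold in both directions for 10 of 10 factors, where the same was true of 64.8% of genes tested. The width of an interval depends on the counts. The factors had at least 226 counts in each library, and the genes tested, some with far fewer, were not matched to them for level. The lowest bound over the factors was -0.57 (*Hand2*, 0.674 of the control-tagged level) and the highest was 0.56 (*Tbx5*, 1.47 times the control-tagged level), both close to the threshold. With 1 library left out at a time, 8 or 9 of the 10 intervals stayed inside it. The log2 fold change was above 0 for 7 factors and below 0 for 3, with a median of 0.10, and the median over all genes tested was -0.001. The median size of the change regardless of direction was 0.12 for the factors and 0.13 for all genes tested. In RNA of whole tissue, fewer cells of a type and less RNA per cell cannot be told apart.

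**Figure D1:**
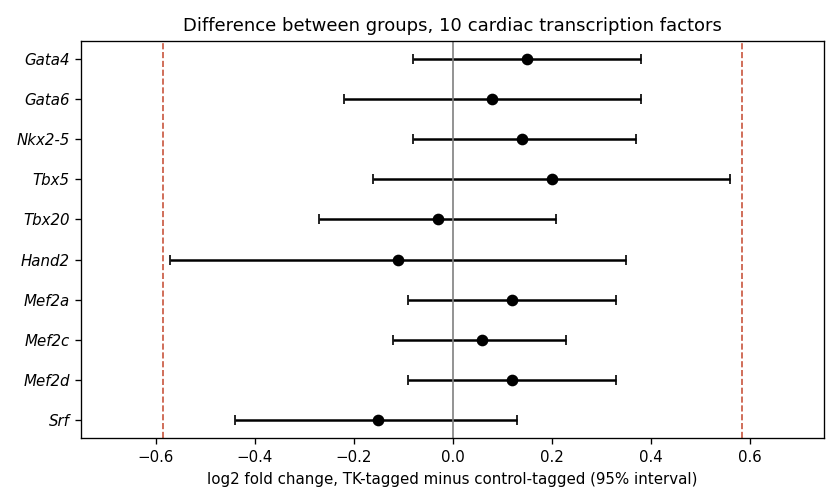
Log2 fold change (horizontal axis, TK-tagged minus control-tagged) of the 10 cardiac transcription factors, with points for the estimate of the quasi-likelihood fit and bars for the 95% confidence interval; dashed lines mark the threshold of 1.5-fold in each direction. All 10 intervals include 0 and none reaches a dashed line.

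*Gata4* and *Gata6* encode zinc finger proteins that bind GATA motifs, and GATA4 is a known mediator of hypertrophic growth. *Gata4* (GRCm38, chr14:63198922-63271692, minus strand) was at 165.0, 124.9, 138.0 and 131.4 normalized CPM in control-tagged libraries 1 to 4 and at 142.3, 152.5, 160.6 and 166.5 in TK-tagged libraries 1 to 4. Control-tagged library 1 lay among the TK-tagged libraries and the other 3 control-tagged libraries lay below all of them. The group means of 139.8 ± 17.6 and 155.5 ± 10.5 (SD, n = 4 each) gave a log2 fold change of 0.15 (SE 0.11, 95% interval -0.08 to 0.38, FDR 0.696). An exact 2-sided permutation test, whose smallest p with 4 against 4 libraries is 0.0286, gave p = 0.143. Without control-tagged library 1, *Gata4* had a log2 fold change of 0.24 at an unadjusted p of 0.0370 and an FDR of 0.471 in the edgeR test. *Gata6* (chr18:11052064-11085635, plus strand) was at 64.9, 52.8, 65.6 and 77.9 normalized CPM in the control-tagged and at 60.3, 80.2, 77.0 and 58.4 in the TK-tagged libraries. Both groups held high and low libraries, and the log2 fold change was 0.08 (SE 0.14, -0.22 to 0.38, FDR 0.894).

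*Nkx2-5*, *Tbx5* and *Tbx20* encode the homeodomain factor and the T-box factors of heart chamber and conduction system formation. *Nkx2-5* (chr17:26838664-26845009, minus strand) was at 61.6, 52.7, 46.2 and 58.4 normalized CPM in the control-tagged and at 63.6, 61.2, 60.3 and 56.5 in the TK-tagged libraries. The TK-tagged libraries lay in the upper part of the control-tagged range or above it, and the log2 fold change was 0.14 (SE 0.10, -0.08 to 0.37, FDR 0.707). *Tbx5* (chr5:119832668-119885219, plus strand), an activator that partners with GATA4 and NKX2-5, was the factor with the fewest counts, 226 to 349 per library. It was at 17.2, 19.5, 22.1 and 24.8 normalized CPM in the control-tagged and at 23.4, 31.0, 23.8 and 18.0 in the TK-tagged libraries. TK-tagged library 2 was the highest and TK-tagged library 4 close to the lowest, and the log2 fold change of 0.20 was the largest of the 10 factors in either direction and had an SE of 0.16 (-0.16 to 0.56, FDR 0.745). *Tbx20* (chr9:24718138-24774303, minus strand), a T-box factor needed to maintain adult heart muscle, was at 104, 94.2, 78.3 and 108 normalized CPM in the control-tagged and at 96.2, 97.9, 83.7 and 98.6 in the TK-tagged libraries. Control-tagged library 3 was the lowest of the 8, and the log2 fold change was -0.03 (SE 0.11, -0.27 to 0.21, FDR 0.955), the smallest of the 10 in size.

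*Hand2* encodes a basic helix-loop-helix protein of the right ventricle and of the sympathetic nervous system. *Hand2* (chr8:57320983-57324633, plus strand) was at 108, 83.5, 75.9 and 169 normalized CPM in the control-tagged and at 94.4, 96.9, 98.0 and 115 in the TK-tagged libraries. Control-tagged library 4 stood above all other libraries, and the control-tagged coefficient of variation of 38.6% was the largest of the 10 factors, beside 9.12% in the TK-tagged group. The log2 fold change of -0.11 (SE 0.21, -0.57 to 0.35, FDR 0.906) turned to 0.18 without that library, with an unadjusted p of 0.208 in the edgeR test. The summed markers of 9 of 10 cell types lay in that library within the range of the other 7 libraries. Skeletal muscle markers were the exception, at 0.639 normalized CPM in sum against 1.23 to 2.31 in the others. These sums are near the floor: only 1 of the 5 skeletal muscle markers passed the filter on low counts. None of the 10 lists was made of markers of the right ventricle or of sympathetic nerves. *Hand2os1*, a long noncoding RNA gene next to *Hand2*, overlaps its exons on the opposite strand over 461 bases, or 19.6% of the exon length of *Hand2*. It was at 70.7, 63.7, 78.0 and 88.0 normalized CPM in the control-tagged and at 74.8, 89.6, 89.0 and 77.0 in the TK-tagged libraries (log2 fold change 0.14, SE 0.11, FDR 0.749). The setting for strand in the counting was not given, so reads of the shared bases cannot be assigned to one of the genes, and the share of such reads in the level of *Hand2* was not tested.

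*Mef2a*, *Mef2c* and *Mef2d* encode MADS box proteins that are held inactive by class II histone deacetylases and released by kinases of hypertrophic signaling. *Mef2a* (chr7:67231163-67372858, minus strand) was at 140.4, 128, 137 and 144 normalized CPM in the control-tagged and at 143, 130.0, 161 and 161 in the TK-tagged libraries, with a log2 fold change of 0.12 (SE 0.10, -0.09 to 0.33, FDR 0.746). *Mef2c* (chr13:83504034-83667080, plus strand) was at 52.4, 51.6, 50.7 and 51.2 normalized CPM in the control-tagged and at 55.2, 50.2, 52.4 and 56.4 in the TK-tagged libraries, with a log2 fold change of 0.06 (SE 0.08, -0.12 to 0.23, FDR 0.857). *Mef2c* had the narrowest interval of the factors and the lowest coefficient of variation over the control-tagged libraries, at 1.39%. Over the TK-tagged libraries its coefficient of variation was 5.20%, and the lowest was that of *Nkx2-5*, at 4.90%. *Mef2d* (chr3:88142372-88172086, plus strand) was at 220.0, 199, 238 and 211 normalized CPM in the control-tagged and at 241, 242, 246 and 214 in the TK-tagged libraries, with a log2 fold change of 0.12 (SE 0.09, -0.09 to 0.33, FDR 0.741). In this gene 3 TK-tagged libraries lay above all control-tagged libraries and TK-tagged library 4 lay among them. The exact permutation p was 0.229 for *Mef2a*, 0.286 for *Mef2c* and 0.143 for *Mef2d*. *Mef2d* shares 531 exon bases with the antisense gene *1700113A16Rik*, which had at most 8 counts in a library, and *Mef2a* shares 302 exon bases with *Lysmd4*, which had 228 to 270.

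*Srf* encodes the MADS box protein that binds CArG boxes in promoters of actin and immediate early genes and controls its own promoter. *Srf* (chr17:46548329-46556175, minus strand) was at 200.1, 169, 239.8 and 158 normalized CPM in the control-tagged and at 174, 155, 181 and 178 in the TK-tagged libraries. The control-tagged libraries spanned the whole TK-tagged range except its lowest library, with control-tagged library 3 as the highest of the 8. The group means of 191.6 ± 36.8 and 172.2 ± 11.9 (SD, n = 4 each) gave a log2 fold change of -0.15 (SE 0.13, -0.44 to 0.13, FDR 0.754), and the exact permutation p was 0.457. Without control-tagged library 3 the log2 fold change was -0.03, and without control-tagged library 4 it was -0.24.

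**Figure D2:**
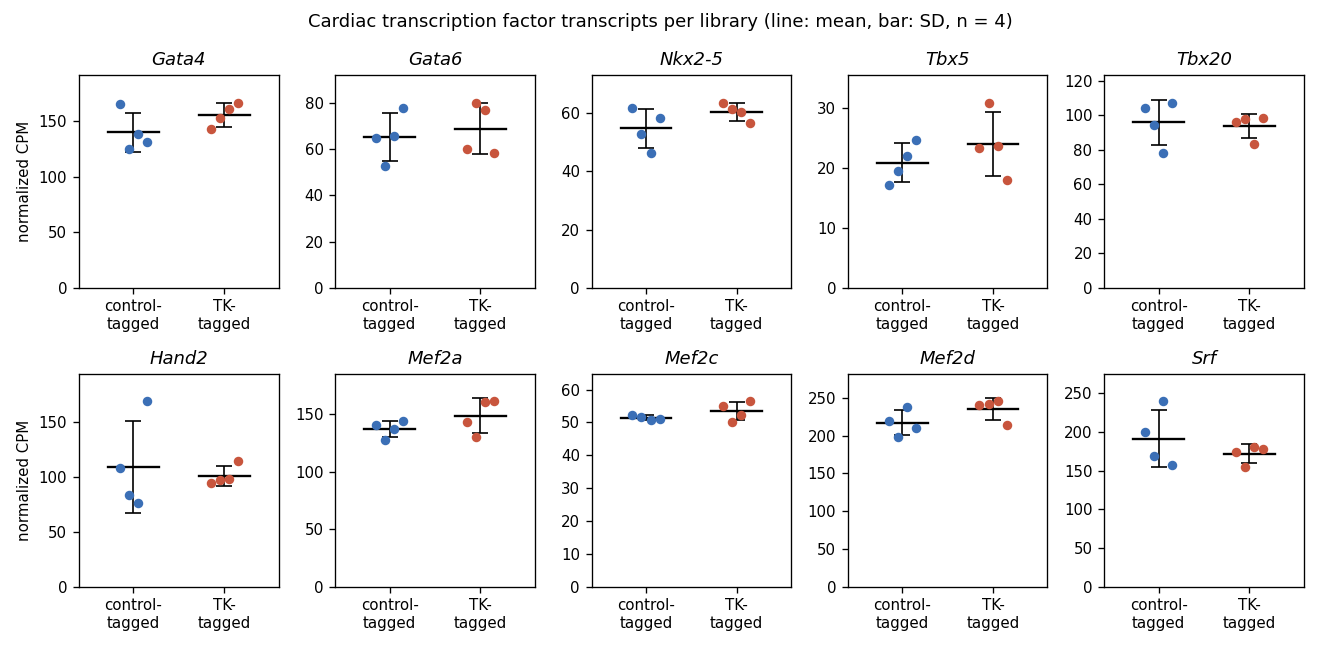
Normalized CPM (vertical axes, starting at 0) of each cardiac transcription factor, with 1 point per library, a line at the group mean and a bar for the SD (n = 4 per group). The groups overlap in all 10 panels, and the control-tagged point of *Hand2* at 169 stands above the rest.

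Promoter sequences were taken from RefSeq (GRCm38.p6) to show the regulatory motifs of this network. A window of 300 bases, 250 before the start of transcription and 50 after it, was given for 7 of the 10 factors, and those of *Gata4*, *Gata6* and *Tbx5* were not analysed here. Both strands were searched for 6 motifs: the CArG box of SRF, the MEF2 site, the GATA site AGATAA, the T-box site AGGTGTGA, the NKX site TNAAGTG and the HAND E-box CATCTG. Of the 32851 promoters of the same length, 1.63% held a CArG box, 3.19% a MEF2 site, 11.2% the GATA site, 1.28% the T-box site, 11.5% the NKX site and 17.2% the HAND E-box. No matches of different motifs overlapped in the promoters of the factors and listed genes. A match is a description of the letters and was not tested as a binding site. The factors with a match were 4 of the 7. *Srf* held 2 CArG boxes, with first bases 82 and 62 bases before the start. *Mef2a* held a MEF2 site across the start itself, *Hand2* a GATA site 172 and a HAND E-box 246 bases before it, and *Mef2c* a HAND E-box 245 bases before it. The stretches before the start of *Srf* (chr17:46556163-46556412, minus strand) and around that of *Mef2a* (chr7:67372851-67373108, minus strand) are shown because they held the CArG box and the MEF2 site, the motifs that bear on the lists of SRF and MEF2 targets, with CArG boxes in the first and the MEF2 site in the second in capitals.
Srf: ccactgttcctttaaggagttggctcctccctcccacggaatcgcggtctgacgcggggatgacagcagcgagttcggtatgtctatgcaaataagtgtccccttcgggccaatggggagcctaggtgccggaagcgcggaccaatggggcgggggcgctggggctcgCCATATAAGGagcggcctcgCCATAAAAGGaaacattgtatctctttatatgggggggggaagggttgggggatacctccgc
Mef2a: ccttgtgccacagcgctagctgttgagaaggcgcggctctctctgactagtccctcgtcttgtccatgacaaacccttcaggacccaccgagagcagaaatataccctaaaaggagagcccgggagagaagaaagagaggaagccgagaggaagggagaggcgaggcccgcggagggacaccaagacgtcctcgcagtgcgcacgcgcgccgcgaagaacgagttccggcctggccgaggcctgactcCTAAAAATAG

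The order of the factors by level was set per exon length. Normalized CPM per kb of exon was the highest for *Srf*, with a mean of 62.9 over the 8 libraries, followed by *Hand2* at 44.7, *Mef2d* at 37.8, *Gata4* at 37.8 and *Nkx2-5* at 33.5. *Gata6* at 10.3, *Mef2a* at 9.74, *Tbx20* at 7.93 and *Tbx5* at 4.81 followed at a distance, and *Mef2c* was the lowest at 3.34. Neighbours in this order overlapped in their range over the libraries, with 2 exceptions. *Nkx2-5* (26.9 to 37.0) lay above *Gata6* (8.12 to 12.3) in every library, and *Tbx5* (3.68 to 6.63) lay above *Mef2c* (3.20 to 3.59). Among the 13513 genes tested that had an exon length, *Srf* stood at percentile 94.8, *Gata4* at 91.3, *Gata6* at 71.9 and *Mef2c* at 44.5. The length is that of all annotated exons of a gene together, 15715 bases for *Mef2c* and 14681 for *Mef2a* against 2893 for *Srf* and 1719 for *Nkx2-5*, so genes whose annotated exons are only partly used come out too low on this scale.

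**Figure D3:**
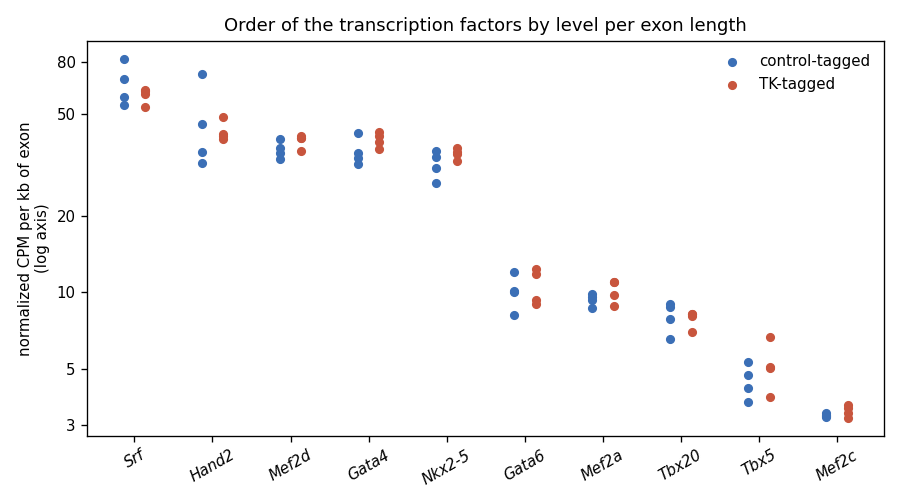
Normalized CPM per kb of exon (vertical log axis) of the 10 cardiac transcription factors in order of their mean, with 1 point per library in each group. A gap separates *Nkx2-5* (33.5) and the factors above it from *Gata6* (10.3) and the factors below it.

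Within families, the balance between paralogs was compared inside each library, where normalization has no part. Per exon length, *Gata6* was at a mean ratio of 0.271 to *Gata4* (0.211 to 0.356 over the 8 libraries) and *Tbx20* at 1.67 to *Tbx5* (1.23 to 2.36). In the MEF2 family *Mef2d* held 71.0% to 77.0% of the summed level per kb, *Mef2a* 16.9% to 21.8% and *Mef2c* 6.03% to 7.26%. *Mef2b*, the remaining family member, had at most 1 count in any library. These levels depend on the annotated exon length. By counts alone, *Mef2a* was at 0.538 to 0.754 of *Mef2d* and *Mef2c* at 0.208 to 0.264 of *Mef2d*. *Tbx20* was at 3.16 to 6.065 times *Tbx5*, and *Gata6* at 0.351 to 0.593 of *Gata4*. The 5 log2 ratios differed between groups by -0.08 (*Gata6* to *Gata4*), -0.21 (*Tbx20* to *Tbx5*), 0.06 (*Mef2a* to *Mef2c*), -0.01 (*Mef2a* to *Mef2d*) and -0.06 (*Mef2c* to *Mef2d*). The groups overlapped in each ratio, with exact permutation p between 0.40 and 0.971 and adjusted p between 0.857 and 0.971 over the 5 ratios. The SD of the log2 ratio within a group reached 0.344 for *Tbx20* to *Tbx5* and 0.259 for *Gata6* to *Gata4*, and was 0.077 for *Mef2a* to *Mef2c* in the control-tagged libraries.

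The spread between mice of one group did not fall on one library. The median coefficient of variation of the factors was 13.1% in the control-tagged and 7.20% in the TK-tagged libraries, and that of all genes tested was 15.1% and 11.7%. Control-tagged library 2 was the lowest of the 8 in 4 factors (*Gata4*, *Gata6*, *Mef2a* and *Mef2d*) and control-tagged library 3 in 3 (*Nkx2-5*, *Tbx20* and *Hand2*), while control-tagged library 3 was the highest for *Srf*. TK-tagged library 4 was the highest in 3 factors (*Gata4*, *Mef2a* and *Mef2c*), and TK-tagged library 2 was the highest in 2 and the lowest in 2. Over all genes tested, TK-tagged library 4 was the highest in 7.70%, TK-tagged library 2 in 14.8% and control-tagged library 3 in 22.1%. The share of genes with a given library as the lowest is not given here. The ratio of the highest to the lowest of the 8 libraries ran from 1.12 for *Mef2c* to 2.23 for *Hand2*, with 1.80 for *Tbx5* and 1.55 for *Srf*.

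**Figure D4:**
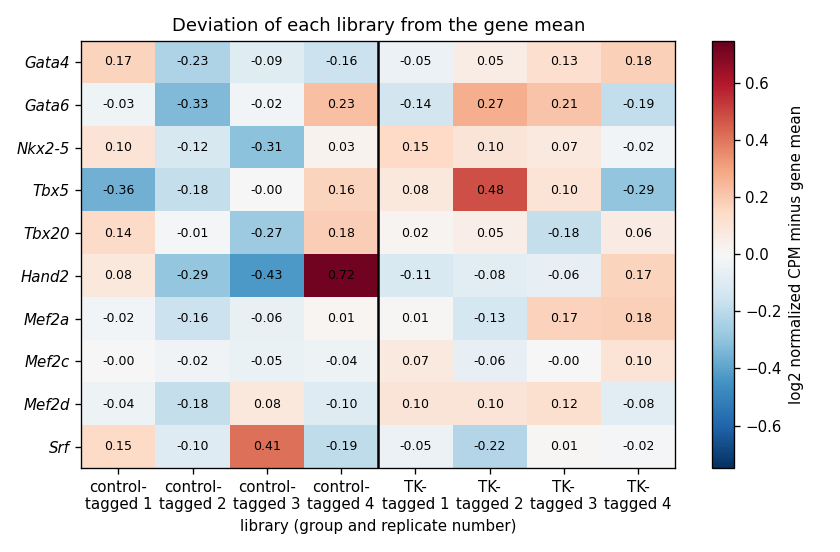
Deviation of log2 normalized CPM from the mean of the gene over the 8 libraries (colour and printed value), for the 10 cardiac transcription factors (rows) in each library (columns, control-tagged left of the line). The largest deviation is that of *Hand2* in control-tagged library 4, at 0.72, and all rows but that of *Mef2c*, whose control-tagged values all lie below its mean, hold positive and negative values in both groups.

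The genes that SRF controls were examined next, since CArG box genes of the contractile apparatus are textbook readouts of SRF. Of 15 listed SRF targets, *Srf* included, 0 were called and 1 had an unadjusted p under 0.05, a share near the 8.96% of all genes tested, with 4 log2 fold changes above and 11 below 0 and a median of -0.05. *Acta1*, skeletal alpha-actin, a gene of the fetal programme that the adult ventricle switches on under load, was that gene. It was at 4102, 6958, 4893 and 3125 normalized CPM in the control-tagged and at 1582, 1854, 1456 and 1811 in the TK-tagged libraries, so that every TK-tagged library lay below every control-tagged library, or above it if the titles are right. The log2 fold change of *Acta1* was -1.51 (SE 0.22, -1.99 to -1.02) with an FDR of 0.152 in the quasi-likelihood test, above the threshold of 0.1. The call depended on the test and on single libraries: the FDR of *Acta1* was 2.85e-08 in the likelihood ratio test, 1.53e-09 with DESeq2, 0.000539 without the filter on low counts, 0.0507 without control-tagged library 2 and 0.0455 without control-tagged library 4. Over 16 alternatives *Acta1* was called in 5 and its log2 fold change lay between -1.67 and -1.27. *Actc1*, the cardiac alpha-actin of the adult sarcomere, was at 18800 ± 4381 (SD, n = 4) normalized CPM in the control-tagged and 17660 ± 560 in the TK-tagged libraries (log2 fold change -0.09, SE 0.20, FDR 0.921), and *Tpm1*, a tropomyosin, had 0.09 (SE 0.16, FDR 0.892).

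A CArG box was present in the promoter window of 6 of the 12 listed SRF targets that had one: *Acta1*, *Actc1*, *Fhl2*, *Myl9*, *Srf* and *Vcl*. Their log2 fold changes were -1.51, -0.09, -0.02, -0.35, -0.15 and 0.01, so the genes with this box ran from the lowest value of the list to a value near 0. The 250 bases before the start of *Acta1* (chr8:123894776-123895025, minus strand), *Actc1* (chr2:114052876-114053125, minus strand) and *Vcl* (chr14:20929148-20929397, plus strand), the gene of the adhesion protein vinculin, are shown to set these values beside the position of the box, in capitals. The first base of the box lay 73 bases before the start in *Acta1*, 47 in *Actc1* and 227 in *Vcl*.
Acta1: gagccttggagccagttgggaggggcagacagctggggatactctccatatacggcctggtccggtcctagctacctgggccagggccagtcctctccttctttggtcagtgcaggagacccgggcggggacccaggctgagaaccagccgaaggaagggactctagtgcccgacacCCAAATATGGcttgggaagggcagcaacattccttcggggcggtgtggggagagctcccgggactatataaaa
Actc1: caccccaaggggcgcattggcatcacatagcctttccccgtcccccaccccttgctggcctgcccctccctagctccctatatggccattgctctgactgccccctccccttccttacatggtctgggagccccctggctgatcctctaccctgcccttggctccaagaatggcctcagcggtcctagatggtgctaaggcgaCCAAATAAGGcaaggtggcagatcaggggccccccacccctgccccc
Vcl: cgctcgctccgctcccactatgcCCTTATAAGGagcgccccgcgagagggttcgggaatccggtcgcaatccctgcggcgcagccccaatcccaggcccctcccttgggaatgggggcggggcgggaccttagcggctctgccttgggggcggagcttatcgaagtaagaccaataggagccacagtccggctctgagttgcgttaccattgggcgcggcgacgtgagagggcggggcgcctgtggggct

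Control-tagged library 3, singled out here because it was the highest in *Srf*, was the highest of the 8 in 6 of the 15 listed SRF targets (40.0%), *Srf* itself among them, beside 22.1% of genes tested. The same library was also the highest in 6 of 20 listed targets of GATA4, NKX2-5, TBX5 and HAND2 and in 4 of 15 MEF2 targets. TK-tagged library 3, at 181 normalized CPM of *Srf*, was the highest in 4 of the 15 SRF targets (26.7%) beside 10.6% of genes tested. It was likewise the highest in 6 of 20 listed targets of GATA4, NKX2-5, TBX5 and HAND2 and in 4 of 15 MEF2 targets. In both libraries each of these lists lay above the share of all genes tested, but the counts are small and the excess was not tested. The choice of control-tagged library 3 by *Srf* also adds *Srf* to its count. The lists overlap as well. *Actc1* is in those of SRF and of GATA4, NKX2-5, TBX5 and HAND2, and *Myl2* is in the latter and in that of MEF2. Whether an excess was particular to SRF targets was not tested. *Actc1* (24280), *Fhl2* (4358), *Acta2* (581.8) and *Myl9* (150.7) had their control-tagged maximum in control-tagged library 3, in normalized CPM. *Acta1* did not, with its maximum of 6958 in control-tagged library 2. Smooth muscle and pericyte markers summed to 1700 normalized CPM in control-tagged library 3, the highest of the 8. *Acta2* itself gave 581.8 of that sum, so the sum is not a separate measure beside *Acta2*. In control-tagged library 2 the markers summed to 1629, with 233.7 from *Acta2*. The part of smooth muscle cells and pericytes in these levels was not tested.

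**Figure D5:**
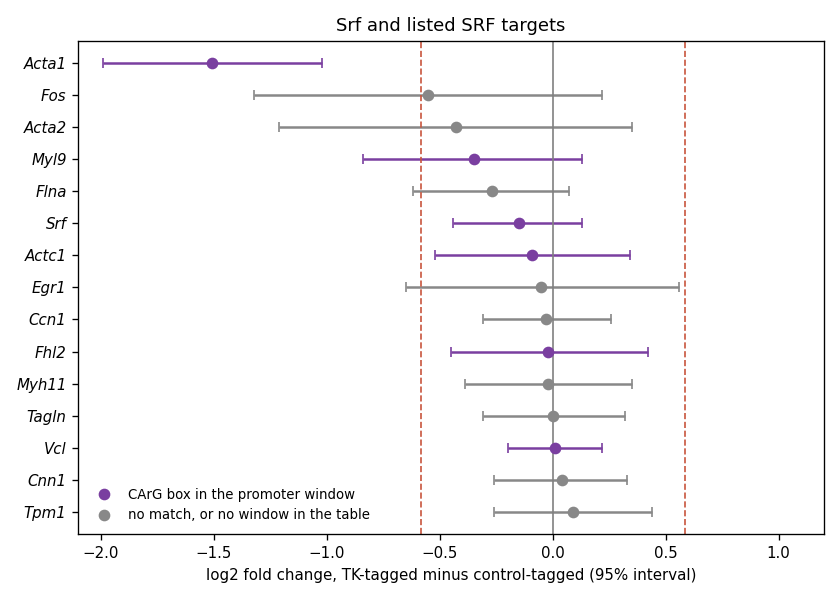
Log2 fold change (horizontal axis, TK-tagged minus control-tagged) with 95% confidence interval of *Srf* and 14 listed SRF targets, in order of the estimate; purple marks genes with a CArG box in the promoter window and dashed lines the threshold of 1.5-fold. *Acta1* lies at -1.51 with its interval beyond the dashed line, and the intervals of the other genes include 0.

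Genes known as targets of GATA4, NKX2-5, TBX5 and HAND2 were described as a list of 20. Of these, 0 were called, 10 had a log2 fold change above and 10 below 0, 2 were higher and 1 was lower at an unadjusted p under 0.05, where 3.32% and 5.64% of genes tested were, and the median log2 fold change was -0.01. *Ankrd1*, the stretch-responsive repressor CARP, was at 3183, 4262, 3622 and 4355 normalized CPM in the control-tagged and at 2982, 1656, 1858 and 2214 in the TK-tagged libraries, without overlap (log2 fold change -0.82, SE 0.19, FDR 0.442), a direction that likewise reverses if the titles are right. It was called in 3 of 16 alternatives: the likelihood ratio test (FDR 0.0137), DESeq2 (FDR 0.00725) and no filter on low counts (FDR 0.0984). *Pln*, phospholamban, the inhibitor of the calcium pump, had 4227 ± 464 (SD, n = 4) and 5266 ± 322 normalized CPM without overlap (log2 fold change 0.32, SE 0.14, FDR 0.541). *Tnni3*, cardiac troponin I, had 0.36 (SE 0.16, FDR 0.551) with overlapping groups. *Myh6*, the main myosin heavy chain of the adult mouse ventricle, had the highest level, 29480 ± 5789 (SD, n = 4) and 31000 ± 4473 normalized CPM, and a log2 fold change of 0.07 (SE 0.21, FDR 0.941).

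*Pln* and *Tnni3* are also cardiomyocyte markers. Of 8 such markers, those 2 genes among them, 7 had a log2 fold change above 0. The summed level was 51840 to 76040 normalized CPM in the control-tagged and 65940 to 86370 in the TK-tagged libraries. The only 2 cardiomyocyte markers with an unadjusted p under 0.05 were *Pln* and *Tnni3* themselves, so that count adds nothing to their own values. Endothelial markers were below 0 in 5 of 6 (3 at an unadjusted p under 0.05, summed 1136 to 1454 and 1033 to 1180), and smooth muscle and pericyte markers in 5 of 6 (3 likewise, 1160 to 1700 and 791 to 1270). Fibroblast markers were below 0 in 6 of 6 (0 at an unadjusted p under 0.05, 1054 to 1546 and 567 to 1315), and leukocyte markers in 4 of 5 (1 likewise, 106 to 143 and 73.7 to 112). Over all genes tested, 3.32% were higher and 5.64% were lower at an unadjusted p under 0.05. The part of cell composition in the levels of the factors and their targets was not tested.

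Of 15 listed MEF2 targets, *Mef2c* included, 0 were called and 1 was higher at an unadjusted p under 0.05, where 3.32% of genes tested were, with 8 log2 fold changes above and 7 below 0 and a median of 0.01. That gene was *Ppargc1a*, the coactivator PGC-1alpha of mitochondrial genes, at 112.1, 73.1, 81.8 and 111.6 normalized CPM in the control-tagged and at 131.1, 118.0, 150.4 and 156.2 in the TK-tagged libraries, without overlap (log2 fold change 0.55, SE 0.15, FDR 0.442). It was called in 0 of 16 alternatives. The most abundant members of the list were *Mb*, myoglobin, with a log2 fold change of 0.19 (SE 0.16, FDR 0.746), and *Myl2*, the ventricular myosin light chain, with 0.19 (SE 0.20, FDR 0.808).

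These factors act through cofactors and repressors. Of 16 listed genes of that kind, among them the SRF coactivators *Myocd* and *Mrtfa* and the MEF2-binding histone deacetylases, 0 were called and 0 had an unadjusted p under 0.05 (8.96% of genes tested), and 15 of 16 intervals lay inside the threshold of 1.5-fold (64.8% of genes tested). That share of genes tested was not matched for level. The median log2 fold change of the 16 genes was 0.08. *Smyd1*, a muscle histone methyltransferase, was the most abundant, with 668.5 ± 72.0 (SD, n = 4) and 710.8 ± 72.7 normalized CPM (log2 fold change 0.09, SE 0.12, FDR 0.855), followed by *Hopx*, a homeodomain protein that restrains SRF, with 0.18 (SE 0.22, FDR 0.846). *Zfpm1*, a GATA cofactor also called FOG-1, was the only one of the 16 without overlap between groups (4.98% of genes tested), at 35.1 to 38.4 and 32.8 to 34.5 normalized CPM, with a log2 fold change of -0.13 (SE 0.08, FDR 0.663). It is named because of that lack of overlap and not by the rule for named genes.

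Other cardiac transcription factors were partly silent in this tissue. Of 16 listed genes 11 passed the filter on low counts. *Hand1*, *Nkx2-6* and *Isl1*, factors of the heart tube and of early progenitors, had 0 counts in all 8 libraries, *Mef2b* 0 to 1 and *Gata5* 1 to 6. Of the 11 genes 0 were called, and 1 was lower at an unadjusted p under 0.05 and without overlap, where 5.64% of genes tested were lower and 4.98% without overlap. The median log2 fold change was 0.06. This was *Tbx2*, a T-box repressor of the atrioventricular canal, at 18.3, 23.3, 18.2 and 19.8 normalized CPM in the control-tagged and at 17.6, 13.9, 14.7 and 16.3 in the TK-tagged libraries, without overlap (log2 fold change -0.35, SE 0.12, FDR 0.476). Its exact permutation p was 0.0286, the smallest that 4 against 4 libraries can give. *Tead1*, the most abundant of the list, had a log2 fold change of 0.03 (SE 0.12, FDR 0.968), and *Irx4*, a ventricular homeodomain factor, had 0.06 (SE 0.12, FDR 0.917).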

How the data were processed

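RNA of 8 LVs was sequenced. The authors trimmed the reads (Trim Galore 0.4.4), aligned them to GRCm38 (STAR 2.5.4b), counted them on GENCODE M16 genes (featureCounts) and deposited whole-number counts per gene without normalization. The kit and the removal of ribosomal RNA are given differently by labels and paper, and the strand setting is not given in the sources used here, so antisense reads may be included.

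The 13542 of 46040 genes that reached a CPM of 1 in 2 or more libraries were analysed with edgeR 4.0.16 in R 4.3.3, by its quasi-likelihood F test (TMM factors 0.917 to 1.12, no covariates), with Benjamini-Hochberg adjustment across all of them (FDR). A call needed an FDR under 0.1 and a 1.5-fold change. Normalized CPM uses library sizes multiplied by TMM factors (prior count 2 for log2 values). The likelihood ratio test, which the authors used, DESeq2 1.42.0, other filters and scalings, each library left out, the replicate number as a block and the grouping by titles were alternatives. Permutation tests and motif searches used Python 3.11.15. Coordinates and exon lengths are from GENCODE M21 (GRCm38). Each library was taken as 1 mouse, and the labels do not say how the mice of a group relate, for example by litter. The p-values compare the difference between groups with the spread between these libraries, taken as independent.

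The factors, gene lists and the rule for named genes were chosen with earlier results of these data known. The rule names the 10 factors, *Flt1* and, from each list, genes with an FDR under 0.1, up to 3 with the lowest unadjusted p under 0.05 and the 2 most abundant. Genes with a CArG box and *Zfpm1* were named after their values were seen. Interval counts and the blocked ratios were alternatives added after seeing the data. Counts were 226 to 3565 per factor and library, and the part of counting error in the spread between libraries was not separated. Skeletal muscle, adipocyte, atrial, endocardial and red blood cell markers were summed as well. *Myh4*, *Myog*, *Plin1* and *Lep* had 0 counts, atrial markers summed to 503 to 1430 normalized CPM, endocardial markers to 42.9 to 53.2 and red blood cell markers to 295 to 733.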

Additional observations from a re-analysis of the deposited data

Results flagged for a closer look

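In 30 groups of 4 libraries, 2 had 1 library far from the other 3 by Dixon's test, where chance gives about 1 in 20. *Tbx20* was at 83.7 normalized CPM in TK-tagged library 3 and at 96.2 to 98.6 in the other TK-tagged libraries. *Mef2d* was at 213.9 normalized CPM in TK-tagged library 4 and at 241.3 to 245.6 in the other TK-tagged libraries.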

How the results depend on the processing

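No factor was called under any of 18 alternatives. Grouped by title, the factors took the opposite sign: -0.15 for *Gata4*, -0.079 for *Gata6*, -0.14 for *Nkx2-5*, -0.20 for *Tbx5*, 0.031 for *Tbx20*, 0.11 for *Hand2*, -0.12 for *Mef2a*, -0.057 for *Mef2c*, -0.12 for *Mef2d* and 0.15 for *Srf*. Leaving out 1 library at a time turned the sign of *Gata6* (-0.01 to 0.17, at -0.01 without control-tagged library 2 and -0.003 without TK-tagged library 2), *Tbx20* (-0.12 to 0.027, at 0.008 without control-tagged library 1, 0.027 without control-tagged library 4 and 0.02 without TK-tagged library 3) and *Hand2* (-0.25 to 0.18). The cause was not tested.

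The difference in the log2 ratio of *Gata6* to *Gata4* ran from -0.167 to 0.036 over the libraries left out (0.036 without control-tagged library 4, 0.028 without TK-tagged library 4). That of *Mef2a* to *Mef2d* ran from -0.094 to 0.069 (0.029 without control-tagged library 4, 0.021 without TK-tagged library 1, 0.069 without TK-tagged library 2).

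The number of factors with an unadjusted p under 0.05 was 0 to 1 over the libraries left out, the 1 being *Gata4* without control-tagged library 1. Over all genes tested, the quasi-likelihood test called 1 gene, the likelihood ratio test 53, DESeq2 32 and the test without the filter on low counts 23. Leaving out 1 library gave 1 to 3 (2 without control-tagged library 1, 3 without control-tagged library 2 and 3 without control-tagged library 4). Over the libraries left out, the number of list genes with an unadjusted p under 0.05 was 0 to 2 for cofactors, 0 to 2 for other cardiac factors, 1 to 4 for targets of GATA4, NKX2-5, TBX5 and HAND2, 1 to 2 for SRF targets and 1 to 2 for MEF2 targets. Replicate numbers were shared by the groups, but libraries of the same number correlated at -0.03, 0.03, 0.34 and -0.06 in their deviations from the group means, so they were not taken as pairs. With the number as a block, *Hand2* had a log2 fold change of -0.04 and *Gata4* of 0.16, 3 SRF targets had an unadjusted p under 0.05, and no call of a factor changed. The likelihood ratio test gave 2 MEF2 targets.

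With 4 libraries per group and a biological coefficient of variation of 15.1% over all genes, real differences can go uncalled. The intervals given above are not limits of detection. *Acta1*, at a log2 fold change of -1.51 (FDR 0.152), was not called in the quasi-likelihood test. The levels per kb depend on the annotated exon length, and the transcripts say nothing of protein, phosphorylation or binding.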
